A study of Mus musculus with 6 samples.

Results

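Btnl1, Btnl2, Btnl4 and Btnl6 are butyrophilin-like genes that lie side by side in the major histocompatibility complex on mouse chromosome 17. They were taken from the deposited tables by gene symbol, and all 4 were found among the 21950 gene symbols listed for both genotypes. Ileum, the last stretch of small intestine, had been collected from C57BL/6 mice of 24 weeks, 3 of them wild type and 3 TLR4ΔIEC, a conditional knockout of Toll-like receptor 4 (Tlr4) in the intestinal epithelium. The line that drives the deletion is not given in the sources used here. Each mouse gave a barcoded library from total RNA depleted of ribosomal RNA. The deposited files held 1 column of average coverage for each genotype, shared by its 3 mice, so there is no spread between mice, no replicate check and no test for any value here. The genotypes were sequenced in separate pools, so genotype and sequencing pool cannot be told apart.

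Butyrophilin-like proteins are membrane proteins of the immunoglobulin superfamily, related to the B7 co-stimulatory ligands. In mouse gut, Btnl1 and Btnl6 are known to pair on the surface of villus enterocytes and to maintain the γδ T cells that live between those cells, the intraepithelial lymphocytes. Btnl4 is a close relative of Btnl6, and Btnl2 is known from cell culture as a ligand that restrains T cell activation.

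The 4 genes span 164 kb. Btnl2 (17:34354822-34369495) and Btnl1 (17:34377132-34386028) lie on the plus strand, and Btnl4 (17:34466562-34477318) and Btnl6 (17:34507804-34517352) on the minus strand, with the transcribed pseudogene Btnl5-ps (17:34488070-34497429) between the latter pair (GENCODE vM21, GRCm38). Btnl4 and Btnl6 are close copies of each other, and that bears on every coverage value of theirs, since reads from one may have been placed on the other. Their annotated transcripts were 90.1% identical over 1620 aligned bases, and each was about as close to Btnl5-ps (90.1% for Btnl4 and 90.6% for Btnl6). The first 120 bases of exon 2, which is protein coding in Btnl4 and Btnl6, are shown as an example of a closely matching stretch. Capitals mark bases that differ from Btnl6 (minus strand, from the GENCODE vM21 transcripts).
Btnl6 (17:34515582-34515701): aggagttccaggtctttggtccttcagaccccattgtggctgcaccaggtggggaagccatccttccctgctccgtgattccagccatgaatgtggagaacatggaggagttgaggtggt
Btnl4 (17:34474235-34474354): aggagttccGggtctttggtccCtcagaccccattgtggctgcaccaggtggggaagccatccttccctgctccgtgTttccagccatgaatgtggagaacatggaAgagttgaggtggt
Btnl5-ps (17:34494336-34494455): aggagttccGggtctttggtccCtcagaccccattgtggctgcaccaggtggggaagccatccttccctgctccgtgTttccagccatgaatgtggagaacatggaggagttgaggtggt
In this stretch Btnl4 differed from Btnl6 at 4 bases and Btnl5-ps from Btnl6 at 3, while Btnl4 and Btnl5-ps differed from each other at 1. The whole exon 2 (351 bases) was 94.0% identical between Btnl4 and Btnl6. It was 95.2% identical between Btnl4 and Btnl5-ps and 95.4% between Btnl5-ps and Btnl6, so it was more alike than the whole transcripts. Over the whole transcripts, 10.05% of the 50-base windows of Btnl4 and 7.13% of those of Btnl6 also occurred unchanged in another gene, in each case Btnl5-ps, the pseudogene Btnl7-ps or the other of the pair. With windows of 100 bases the shares were 1.44% and 0.0657%. Btnl1 and Btnl2 shared 0 windows of either length with any other annotated gene, and their transcripts were 62.8% identical to each other. The read length is not given in the sources used here, so how many reads could not be assigned to 1 gene is not known.

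The deposited values are average coverage, taken here as reads per base and so already per length. Levels of different genes were set side by side on that reading, subject to the unknown placing of reads between Btnl4, Btnl5-ps and Btnl6. For the comparison of genotypes, the values were brought to a common scale with the median ratio over all genes and expressed in units of a total of 1000000. Btnl6 was the highest of the 4, with coverages of 170.2 (wild type) and 175 (TLR4ΔIEC), which became 249 and 245 units once scaled. Btnl4 had coverages of 44.5 and 46.0, or 65.3 and 64.2 units. Btnl1 had coverages of 40.9 and 37.0, or 59.99 and 51.8 units.

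Btnl2 was the lowest, with coverages of 29.8 (wild type) and 20.4 (TLR4ΔIEC), or 43.6 and 28.5 units. The order Btnl6, Btnl4, Btnl1, Btnl2 was the same in both columns, and the wide step was the one between Btnl6 and the rest. Btnl6 lay 3.82-fold above Btnl4 in wild type, and Btnl4 lay 1.09-fold above Btnl1. Without replicates, whether neighbours in this order differ beyond the spread between mice cannot be said.

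**Figure D1:**
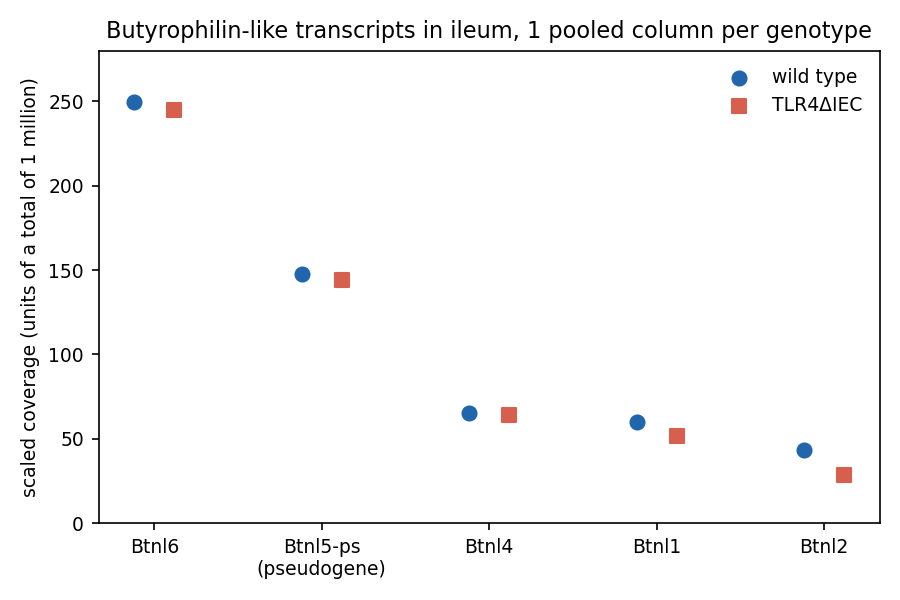
Scaled coverage (units of a total of 1000000, linear axis from 0) of the 4 butyrophilin-like genes and the pseudogene Btnl5-ps for wild type (circles) and TLR4ΔIEC (squares), each 1 pooled value with no error. Btnl6 stands at 249 and 245 units, and Btnl2 shows the widest gap between the columns, 43.6 against 28.5 units.

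These values rest on many overlapping reads. For Btnl1 and Btnl4 the coverage in both columns was a whole number of bases, within a relative 1e-11, divided by the full exon length of the annotated transcript (2113 and 1761 bases), and for Btnl2 by 2563 bases, close to the 2566 of the annotation. For Btnl6 the smallest lengths that gave whole numbers were 270 bases in wild type and 45 in TLR4ΔIEC. Both divide the annotated 1620 bases, which were used, but other multiples would also serve. The summed bases of reads were 86470 in wild type and 78230 in TLR4ΔIEC for Btnl1, and 76278 and 52308 for Btnl2. They were 78413 and 80923 for Btnl4, and 275646 and 284004 for Btnl6. Bases are not independent reads, so no counting interval was derived from them.

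The comparison the design implies is whether loss of epithelial Tlr4 goes with a change in these genes. None of the 4 reached a 2-fold difference, against 4.08% of the 8891 measured genes (those with a mean of at least 5 units) in either direction. Btnl4 and Btnl6 were nearly equal in the 2 columns, with log2 ratios of TLR4ΔIEC over wild type of -0.02 and -0.03 (taken of units plus a pseudocount of 1). Both ratios turned slightly positive, at most 0.08, in 3 of the 5 other scalings, so they have no firm sign. Read bases of Btnl4, Btnl5-ps and Btnl6 added together also stood at a log2 ratio of -0.03, an alternative chosen after the data were seen. That sum leaves out Btnl7-ps, which is 89.6% identical to Btnl4 and 91.0% to Btnl6 and was not analysed here, and it rests on the length of Btnl5-ps, which is uncertain.

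Btnl1, the partner that Btnl6 is known to need at the cell surface, was 1.16-fold lower in the TLR4ΔIEC column (log2 ratio -0.21). Of all measured genes, 28.8% had a lower ratio than Btnl1. Btnl2 was 1.51-fold lower (log2 ratio -0.60), and 9.88% of measured genes had a lower ratio. The ratios of Btnl1 and Btnl2 stayed below 0 in all 11 other settings tried, from -0.21 to -0.11 for Btnl1 and from -0.60 to -0.49 for Btnl2. A filter leaves a ratio as it is and a pseudocount cannot reverse its sign, so mainly the other scalings put the sign to the test. The standard deviation of the log2 ratio over measured genes was 0.48, so Btnl1, Btnl4 and Btnl6 lay within it and Btnl2 a little beyond it.

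**Figure D2:**
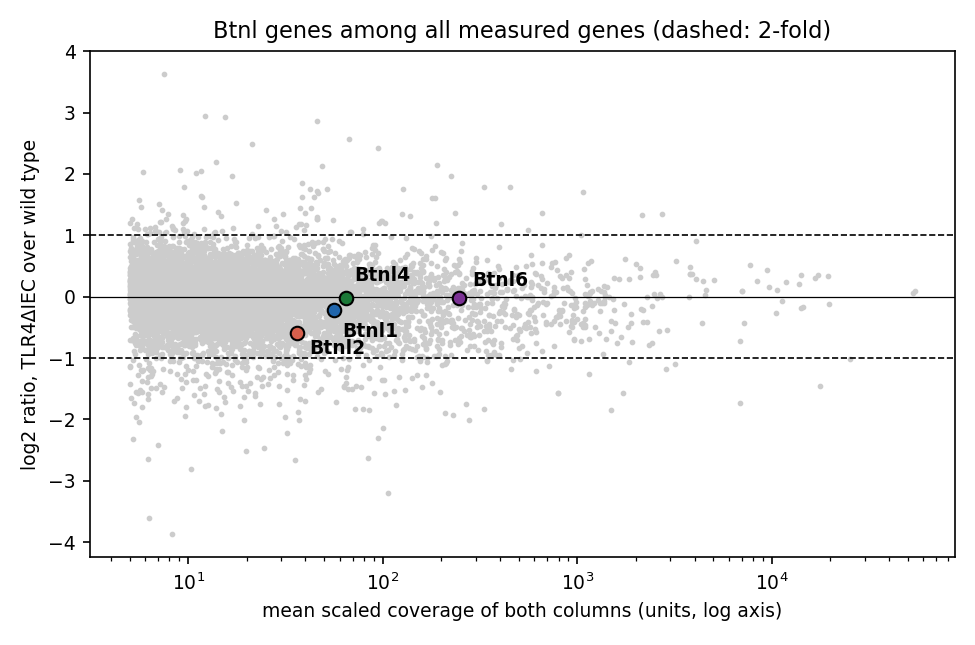
Log2 ratio of TLR4ΔIEC over wild type against the mean scaled coverage (units, log axis) for 8891 measured genes, with the 4 butyrophilin-like genes coloured and dashed lines at 2-fold. Btnl4 (-0.02) and Btnl6 (-0.03) sit on the zero line, Btnl1 (-0.21) just below it and Btnl2 (-0.60) nearer the lower 2-fold line.

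Ratios between members do not depend on how the columns are scaled. Btnl6 over Btnl4 was 3.82 in both columns. Btnl6 over Btnl1 was 4.16 in wild type and 4.74 in TLR4ΔIEC. Btnl1 over Btnl2 was 1.38 and 1.81, and Btnl6 over Btnl2 was 5.72 and 8.59. The make-up of the group thus differed between the columns mainly through Btnl2.

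The rest of the butyrophilin family was hardly covered in ileum, apart from Btnl5-ps. This pseudogene, which encodes no full protein, had coverages of 100.8 (wild type) and 103 (TLR4ΔIEC), or 148 and 144 units, with a log2 ratio of -0.04. The smallest lengths that gave whole numbers were 2592 bases in wild type and 27 in TLR4ΔIEC. The 2592 was used, but other multiples would also serve. Neither length divides the 1751 of the annotated exons, so the value may not be an average over the annotated transcript. Its place between Btnl6 and Btnl4 is therefore uncertain, and its share of reads that belong to those genes was not tested. The other 15 family members listed in both columns had coverages from 0.0279 to 0.451. They include Btn1a1, the milk fat globule butyrophilin, Btn2a2, Btnl9, Btnl10 and 10 Skint genes, which are known from skin and thymus. No ratio is given for them, since all lay under the filter.

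Because the 4 genes are known from enterocytes, epithelial markers were set beside them. In whole ileum, fewer cells of a type and less RNA per cell cannot be told apart. All 10 pan-epithelial markers were measured, 4 above 0 and 6 below, with a median log2 ratio of -0.02 and summed units of 9118 in wild type and 8717 in TLR4ΔIEC. The median over all measured genes was 0.03, and 52.6% of them lay above 0. Among the best covered, Lgals4, a galectin of enterocytes, was at -0.03, Krt8, a keratin, at -0.15, Epcam, an adhesion molecule, at -0.40, and Krt19, another keratin, at 0.43. Relative to the pan-epithelial median, Btnl4 and Btnl6 stood at -0.0029 and -0.0055, Btnl1 at -0.19 and Btnl2 at -0.58 on the log2 scale.

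Markers of villus enterocytes, the cells in which Btnl1 and Btnl6 are known to act, had 2 of 11 members above 0 and 9 below, 3 of them at least 2-fold lower, against 2.79% of all measured genes. Their median log2 ratio was -0.19, and their summed units were 7540 in wild type and 4598 in TLR4ΔIEC. The 4 most abundant were the fatty acid binding protein Fabp2 (-1.17), the aminopeptidase Anpep (-0.13), the apolipoprotein Apoa4 (-1.19) and the protease Mep1b (0.11). Fabp2 was the largest part of both sums, at 3942 (wild type) and 1750 (TLR4ΔIEC) units. Crypt stem cell markers, of which 3 of 5 were measured, had 2 above 0 and 1 below, with a median log2 ratio of 0.54 and summed units of 173 and 272. They were Olfm4 (0.75), Smoc2 (0.54) and Axin2 (-0.05). The part of these epithelial differences in the values of the butyrophilin-like genes was not tested. Relative to the villus median, Btnl4 stood at 0.17, Btnl6 at 0.17, Btnl1 at -0.02 and Btnl2 at -0.40.

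HNF4A, a nuclear receptor of gut epithelium, is known to control butyrophilin-like genes, and a list of 14 intestinal transcription factors was examined for that reason. Of 12 measured, 6 lay above 0 and 6 below, and 0 differed by 2-fold, against 4.08% of all measured genes. The median log2 ratio was -0.05, turning to 0.05 with a scaling that used totals after removal of the 50 highest genes. Hnf4a had 246 (wild type) and 229 (TLR4ΔIEC) units (log2 ratio -0.11). Its relative Hnf4g was at 57.6 and 50.4 units (-0.19). The homeobox factors Cdx1 and Cdx2 were at -0.41 and 0.10, and Klf4, a factor of differentiated epithelium, had the lowest ratio of the 12 measured (-0.67).

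The upstream sequence of the members was searched for motifs of such factors, on both strands of the 300-base windows that RefSeq (GRCm38.p6) gives around the annotated starts. All 4 members had a window. The HNF4 motif CAAAGTCC was present in the windows of Btnl1 and Btnl2, and in 1.42% of all 32851 windows. The last 100 bases before the outermost annotated start of these genes are shown because both carry the motif, in capitals, close to the start (plus strand).
Btnl1 (17:34377023-34377122): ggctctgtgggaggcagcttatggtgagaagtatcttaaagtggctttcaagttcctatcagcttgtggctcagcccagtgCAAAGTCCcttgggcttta
Btnl2 (17:34354689-34354788): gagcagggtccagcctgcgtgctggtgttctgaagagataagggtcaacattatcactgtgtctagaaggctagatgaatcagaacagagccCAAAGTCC
The motif began 28 bases before the start used in the table for Btnl1 and 41 bases before that for Btnl2. The GATA motif AGATAA was found in the Btnl2 window, 98 bases before the start, and in 11.2% of all windows. The CDX motif TTTATG (11.9% of all windows) and the interferon response element (GAAA, any 2 bases, GAAA, in 3.44%) were in none of the 4. The windows of Btnl4 and Btnl6, 91.0% identical to each other, held none of the 4 motifs. The start around which these are placed is the first coding base, and longer predicted models of Btnl4 and Btnl6 start farther upstream, so these windows may not hold the promoters. A match is a run of letters and does not show binding.

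Genes of the T cell receptor complex, a mark of T cells of any kind, had higher values in the TLR4ΔIEC column. All 4 measured genes of the T cell receptor complex, of 9 in the list, had ratios above 0, against 52.6% of all measured genes. The median log2 ratio of the 4 was 0.64, and 0 reached 2-fold, against 4.08% of all measured genes. The γ and δ chain segments in the list were not analysed here, so γδ T cells were not told apart from other T cells. The CD3 chains Cd3g, Cd3e and Cd3d were at 0.85, 0.82 and 0.47, and the adaptor Lat at 0.30. Cd3g had 16.5 (wild type) and 30.6 (TLR4ΔIEC) units.

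Of 23 genes known from intraepithelial lymphocytes, 8 were measured, 5 above 0 and 3 below, with a median log2 ratio of 0.52. At least 2-fold higher was 1, against 1.29% of all measured genes, and at least 2-fold lower was 1, against 2.79%. The first was granzyme A (Gzma), a killing protease, at 57.6 and 196 units (log2 ratio 1.75). The second was the chemokine Xcl1, at 12.4 and 5.43 units (-1.06). Ccl5, a chemokine of cytotoxic cells, was at 0.68, and the transcription factor Sox13, which other cells also express, was at -0.38.

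Other epithelial genes that recruit or sustain gut lymphocytes were split. Of 14 listed, 10 were measured, 5 above 0 and 5 below, with a median log2 ratio of 0.03. At 2-fold or more, 1 was lower and 0 were higher, against 2.79% and 1.29% of all measured genes. Il15, the cytokine on which intraepithelial lymphocytes depend, was weakly covered, with 11.6 (wild type) and 4.46 (TLR4ΔIEC) units, and 2.31-fold lower. Its receptor chain Il15ra was at -0.36. Ccl25, the chemokine that draws T cells to the small intestine, was at 520 and 293 units, 1.77-fold lower.

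The nonclassical class I molecule H2-T3, a ligand of CD8αα on these lymphocytes, was at 79.99 and 71.8 units (-0.15). Cdh1, the E-cadherin that binds the lymphocyte integrin CD103, was at 126 and 158 units (0.33). Ccl28, a chemokine of mucosal epithelium, was at 0.89, Tnfrsf14 at 0.21, Il18 at 0.12, Kitl at 0.11 and Cxcl16 at -0.04. In size of difference, Btnl1, Btnl4 and Btnl6 thus resembled H2-T3, Cxcl16, Tnfrsf14, Il18 and Kitl, while Il15, Ccl28 and Ccl25 stood farther from 0. Btnl2 (-0.60) lay between these groups, as did Il15ra and Cdh1.

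**Figure D3:**
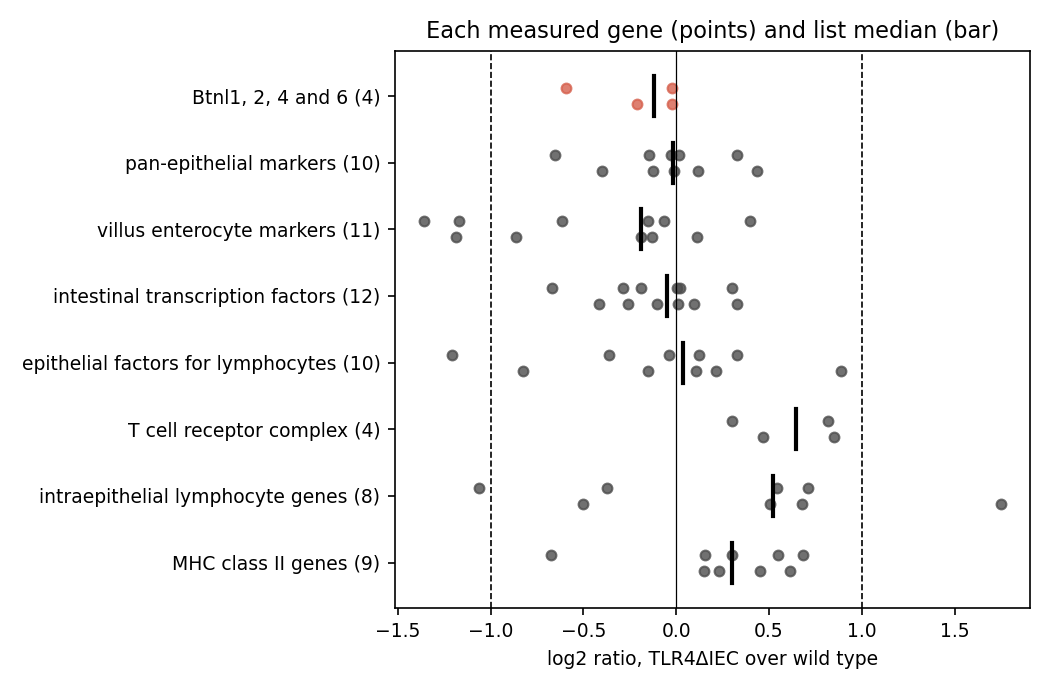
Log2 ratio of TLR4ΔIEC over wild type for each measured gene (points) of 8 lists, with the list median as a bar, the number measured in parentheses and dashed lines at 2-fold. The 4 butyrophilin-like genes lie between -0.60 and -0.02, the T cell receptor complex wholly above 0, and villus markers reach -1.36.

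The chromosome around the cluster was described as well, since immune genes flank it. RefSeq lists 31 other genes within 200000 bases of the 4 members, 24 of them were in both columns and 18 were measured. Of these 18, 12 had ratios above 0 and 6 below, where 52.6% of all measured genes lay above 0. The median log2 ratio of the 18 was 0.15. Tap1, a peptide transporter of class I presentation, was the 1 gene at least 2-fold higher (22.2 and 52.0 units), and 0 were at least 2-fold lower. Of all measured genes, 1.29% were at least 2-fold higher and 2.79% lower. The immunoproteasome subunits next to it, Psmb8 and Psmb9, were at 0.98 and 0.97, and Tap2 at 0.60. In GENCODE vM21 Tap1 and Psmb9 overlap by 212 bases on opposite strands, while their RefSeq models do not overlap. Psmb8 and Tap2 also overlap a gene on the opposite strand in GENCODE, as do H2-Eb1, Agpat1, Rnf5 and Tnxb below. Gpsm3 and Pbx2 overlap each other there on the same strand, and Ppt2 overlaps another gene on its own strand. Whether the coverage used strand is not given in the sources used here.

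Nearer to Btnl2, the class II genes H2-Eb1, H2-Aa and H2-Ab1 were at 0.45, 0.15 and 0.15, and H2-Ob was at -0.67. H2-Eb2 and Notch4, the nearest protein-coding genes on either side of the cluster, and BC051142, which lies between Btnl1 and Btnl4, had coverages under 1 in both columns. On the far side, Tnxb was at -0.58, Agpat1, a lipid acyltransferase, at -0.56, Ppt2 at -0.28 and Rnf5, a ubiquitin ligase, at -0.02. Above 0 on that side were Gpsm3 (0.43), Pbx2 (0.22), Fkbpl (0.12) and Atf6b (0.09). No gene of another name overlapped a member in the GENCODE annotation.

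**Figure D4:**
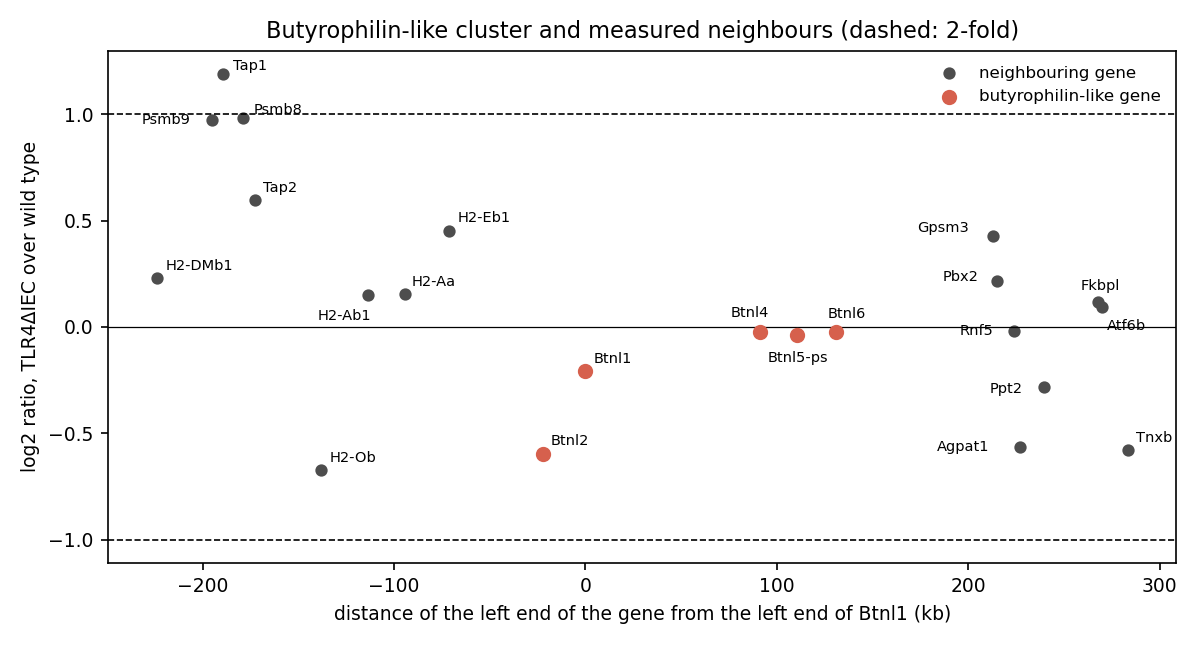
Log2 ratio of TLR4ΔIEC over wild type for the butyrophilin-like cluster and its measured neighbours, against the distance of each gene's left end from that of Btnl1 (kb). Psmb8, Psmb9, Tap1 and Tap2 lie from 0.60 to 1.19, and the cluster itself from -0.60 to -0.02.

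Btnl2 is also known from antigen-presenting cells, so markers of such cells were set beside it. Of 9 measured class II genes, 8 were above 0 and 1 below, where 52.6% of all measured genes lay above 0. The median log2 ratio of the 9 was 0.30, with summed units of 3446 in wild type and 4521 in TLR4ΔIEC. Macrophage markers had 4 of 5 above 0, a median of 0.71 and summed units of 896 and 1669, most of them from Lyz2 (691 and 1390). C1qb was at 0.71, C1qc at 0.39 and C1qa at -0.08. The 2 measured B cell markers, Cd79a and Cd79b, were at -0.06 and 0.05 (summed units 53.5 and 53.7). The class II gene below 0 was H2-Ob (-0.67). The part of antigen-presenting cells in the value of Btnl2 was not tested.

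Markers of other tissue and of handling also differed between the columns. All 4 measured adipocyte markers were at least 2-fold lower in TLR4ΔIEC (summed units 63.4 and 19.8), against 2.79% of all measured genes. At least 2-fold lower too were 4 of 6 immediate early and heat shock genes (summed units 241 and 102, all 6 below 0). All 5 smooth muscle markers were above 0, with a median log2 ratio of 0.10 and summed units of 685 and 764. Their part in the values of Btnl1 and Btnl2 was not tested. The ileal label was checked with the bile acid genes Fabp6 (15350 and 13628 units) and Slc10a2 (93.0 and 93.7 units), both well covered. Tlr4 itself was weakly covered, with coverages of 1.98 (wild type) and 1.60 (TLR4ΔIEC), over the whole transcript and in all cells of the ileum, and so checks the genotype labels only weakly.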

How the data were processed

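The authors deposited coverage, per the file headers an average for each RefSeq entry, in 1 column for each genotype, which all 3 mice share per the labels. Per the submitters' processing notes, build mm10, Bowtie2 2.1.0 and TopHat2 2.0.10 were used, without stated roles. How the coverage was computed is not given in the sources used here. Columns listed 22724 (wild type, sum 699800) and 22687 (TLR4ΔIEC, sum 698473) entries. Entries in both gave 21950 symbols, a repeated symbol being represented by its highest entry. Columns were scaled by the median of ratios (factor 1.05) to a mean total of 1000000 units. Log2 ratios used a pseudocount of 1, which understates weakly covered genes, and a filter at a mean of 5 units. Members and lists were chosen with earlier results of these data known. All members were named. The other genes that could be named, not all of which were, were the measured genes of the family, T cell receptor, transcription factor and epithelial factor lists, the 4 most abundant of other lists, measured neighbours, and the 3 genes nearest each member in both values. Xcl1 and the 3 weakly covered genes beside or in the cluster were named after their values were seen. The planned comparison of proteins was not run, and transcripts were aligned instead. The scaling and ratios were tested on simulated data. Python 3.11.15, numpy 2.4.6, pandas 2.3.3 and biopython 1.88 were used. The value of 1 gene of the intraepithelial lymphocyte list is not reported here.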

Additional observations from a re-analysis of the deposited data

How the results depend on the processing

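No replicate could be left out, since each column pools its mice. No paired analysis was possible because the columns carry no replicate numbers. A value was taken as moved when it changed by over 0.1 on the log2 scale, or a count by over 1.5 times. Scaling by totals after removal of the 50 highest genes, under which the median of all genes was 0.12 instead of 0.03, put Btnl1 at -0.11, Btnl2 at -0.49, Btnl4 at 0.081 and Btnl6 at 0.079. It put the medians of pan-epithelial markers at 0.085, villus markers at -0.086, intestinal transcription factors at 0.049, class II genes at 0.40, B cell markers at 0.10, macrophage markers at 0.82, crypt stem cell markers at 0.64, smooth muscle markers at 0.20, handling genes at -1.15 and neighbouring genes at 0.26. With a pseudocount of 5 the medians were 0.42 for the T cell receptor complex, 0.36 for intraepithelial lymphocyte genes, -1.10 for adipocyte markers and -1.02 for handling genes, and 65 genes were 2-fold higher and 146 lower, against 115 and 248 in the main analysis. A filter at 1 unit gave 206 and 380 genes, B cell markers at -0.50 and macrophage markers at 0.49. No filter gave 222 and 395 genes, B cell markers at -0.42, macrophage markers at 0.49, handling genes at -1.06 and neighbouring genes at 0.042. A filter at 20 units gave 58 and 130 genes, transcription factors at -0.19 and intraepithelial lymphocyte genes at 0.68. The other planned settings moved no member. Differences between members and the epithelial medians moved under none of the 11. That was largely fixed in advance, since a scaling nearly cancels in a difference and the filters removed none of the genes involved. The cause of these changes was not tested, except that a filter changes which genes enter.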

Other observations

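The B7 family, to which butyrophilins are related, was weakly covered. Of 8 listed genes, 2 were measured. Icosl, the ligand of the T cell co-receptor ICOS, had 9.59 (wild type) and 8.61 (TLR4ΔIEC) units (log2 ratio -0.14). The gene listed as 4632428N05Rik, which encodes the checkpoint protein VISTA, was at 8.10 and 15.4 units (0.85).

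The genes nearest to each member in both scaled values, out of the named measured genes, were Wsb2, Trim15 and Scamp2 for Btnl1, Rpp21, Entpd8 and Ccs for Btnl2, Tmem38b, Twf1 and Lad1 for Btnl4, and Suclg1, Tomm22 and Glrx for Btnl6. The distances, on the log2 scale over 2 pooled columns, ran from 0.0012 for Wsb2 to 0.093 for Glrx. With 2 columns such nearness says only that level and ratio were alike.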
